A study of Homo sapiens with 15 samples.

Results

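The epidermal differentiation complex is a cluster of genes on human chromosome 1 that encode building blocks and regulators of the outer skin barrier, and the S100 genes lie at its edges and inside it. The 57 genes described here were chosen by symbol: 16 S100 genes, 10 small proline-rich (SPRR) genes, 18 late cornified envelope (LCE) genes, the envelope scaffold genes IVL and LORICRIN, 7 fused S100 genes, the peptidoglycan recognition genes PGLYRP3 and PGLYRP4, and SMCP and CRCT1. The rule used no measured value. A probe was found for 56 of them (all but LCE1F), with 67 probes in all among the 50599 probes of the array.

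The cells were SCC13, a line of human cutaneous squamous cell carcinoma, which arises from keratinocytes. SCC13-TLR4 cells carried a stably transfected plasmid (pUNO-TLR4GFP) for TLR4, the receptor of bacterial lipopolysaccharide (LPS), fused to a green fluorescent protein, and SCC13-pUNO cells carried the control plasmid. Both lines were selected with blasticidine. By the study's methods the SCC13-TLR4 cells with the higher GFP signal were then sorted and used, and no sort of the control line is described. Each line is thus a selected population, and every replicate is a culture of it. Between the lines, TLR4, the GFP and the sort cannot be told apart. The control line gave 4 untreated and 4 LPS-treated cultures and the TLR4 line 3 and 4, with 1 array for each culture and 10 μg/ml ultrapure LPS for 24 h as the treatment. The comparisons ask whether the genes differ between the lines, with and without LPS, and between treated and untreated cells of a line. The p-values below measure the spread between these cultures.

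Keratinocytes that leave the basal layer of the epidermis stop dividing and replace their membrane with a cornified envelope, a protein shell in which transglutaminases cross-link involucrin, loricrin, SPRR and LCE proteins. The fused S100 proteins, with filaggrin as the best known, bind keratin filaments or the envelope in the upper layers. S100 proteins are small calcium-binding proteins, of which S100A7, S100A8 and S100A9 are known as alarm proteins of inflamed skin, and S100A8 and S100A9 as ligands of TLR4.

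The upstream regions of 7 genes are printed to show the letters that SPRR and scaffold promoters share, beside an unmeasured and a measured S100 gene. They are RefSeq sequences of the assembly GRCh38.p14, the 250 bases before the annotated start, 5′ to 3′ on the strand of the gene. Capitals mark 2 strings. TGANTCA is the site of the AP-1 factors, which act in keratinocyte differentiation and downstream of TLR4. TATAAA is a form of the TATA box, and no other form of it was searched, so a region without these letters may still hold a TATA box.

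SPRR1A, chr1:152983831-152984080, plus strand: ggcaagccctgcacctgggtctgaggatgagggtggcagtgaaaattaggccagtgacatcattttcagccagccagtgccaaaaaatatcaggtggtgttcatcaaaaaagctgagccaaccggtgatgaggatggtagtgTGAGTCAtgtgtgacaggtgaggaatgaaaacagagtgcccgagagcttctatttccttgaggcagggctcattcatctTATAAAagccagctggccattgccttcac
SPRR1B, chr1:153030953-153031202, plus strand: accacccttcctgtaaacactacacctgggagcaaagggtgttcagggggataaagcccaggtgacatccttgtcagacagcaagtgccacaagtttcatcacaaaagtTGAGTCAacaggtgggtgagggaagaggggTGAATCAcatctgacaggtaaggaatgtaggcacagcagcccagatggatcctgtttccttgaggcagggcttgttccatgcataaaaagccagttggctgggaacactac
SPRR2F, chr1:153113517-153113766, minus strand: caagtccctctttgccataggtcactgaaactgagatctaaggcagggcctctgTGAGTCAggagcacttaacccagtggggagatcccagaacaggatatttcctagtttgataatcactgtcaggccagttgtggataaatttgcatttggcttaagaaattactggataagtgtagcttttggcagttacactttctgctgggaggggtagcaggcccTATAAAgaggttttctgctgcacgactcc
IVL, chr1:152908296-152908545, plus strand: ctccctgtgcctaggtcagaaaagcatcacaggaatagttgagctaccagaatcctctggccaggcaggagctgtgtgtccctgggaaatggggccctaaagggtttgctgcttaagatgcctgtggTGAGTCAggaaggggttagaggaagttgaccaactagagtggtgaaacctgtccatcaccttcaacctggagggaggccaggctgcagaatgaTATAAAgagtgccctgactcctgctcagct
LORICRIN, chr1:153259437-153259686, plus strand: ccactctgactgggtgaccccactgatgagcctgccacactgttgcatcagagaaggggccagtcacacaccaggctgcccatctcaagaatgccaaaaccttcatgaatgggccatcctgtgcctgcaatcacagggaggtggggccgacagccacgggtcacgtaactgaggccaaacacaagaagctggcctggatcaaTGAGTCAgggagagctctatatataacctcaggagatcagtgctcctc
S100A9, chr1:153357604-153357853, plus strand: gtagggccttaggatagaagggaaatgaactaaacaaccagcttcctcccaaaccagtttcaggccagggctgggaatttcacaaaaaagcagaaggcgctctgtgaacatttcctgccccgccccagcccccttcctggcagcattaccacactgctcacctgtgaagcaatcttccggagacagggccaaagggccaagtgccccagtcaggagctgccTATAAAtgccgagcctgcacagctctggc
S100A6, chr1:153535992-153536241, minus strand: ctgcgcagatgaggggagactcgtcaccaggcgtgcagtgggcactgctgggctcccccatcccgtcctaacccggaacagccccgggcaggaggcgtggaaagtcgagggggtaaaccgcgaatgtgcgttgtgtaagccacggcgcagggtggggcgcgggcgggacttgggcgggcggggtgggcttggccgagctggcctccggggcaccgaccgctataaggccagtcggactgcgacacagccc

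An AP-1 site began 108 bases before the start of SPRR1A, 196 before that of SPRR2F, 123 before that of IVL and 48 before that of LORICRIN, and SPRR1B held sites at 141 and 111. TATAAA began 29 or 30 bases before the start of SPRR1A, SPRR2F, IVL and S100A9. The S100A6 region held neither string. An upstream region was at hand for 53 of the 57 genes, and both strands were searched. TGANTCA was found in 18 of the 53 (34%), against 8.06% of 27305 genes, and TATAAA in 28 (52.8%), against 13%. The AP-1 string was in 6 of 8 SPRR genes and 6 of 7 fused S100 genes, and in 0 of 17 LCE genes and 4 of 16 S100 genes. These matches are descriptions of letters in a window.

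A gene was called measured when at least 1 group of arrays had a probe of it well above background throughout, by the flag of the scanner software. By this rule 24 of the 56 genes with a probe (42.9%) were measured, against 63.8% of the 20503 gene symbols on the array, and 19 of the 24 were above background on all 15 arrays. Of the 32 others, 15 were above background on no array and 17 on some. Measured genes were 10 of 16 S100 genes, 5 of 10 SPRR genes, 7 of 17 LCE genes, IVL, and 1 of 7 fused S100 genes, CRNN. Neither peptidoglycan recognition gene and neither SMCP nor CRCT1 was measured.

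The measured S100 genes lay towards both ends of the complex. S100A10 and S100A11 stood at the end where the gene order starts, and S100A6, S100A5, S100A4, S100A3, S100A2, S100A16, S100A14 and S100A13 followed each other without a gap towards the opposite end, where S100A1, the last gene, was not measured. The neighbouring block from S100A9 to S100A7 was unmeasured. S100A7A, S100A9 and S100A12 were above background on 0 of 15 arrays, S100A7 on 1, S100A8 on 2 and S100A1 on 3. S100A8, a subunit of calprotectin, was above background in 1 untreated and 1 LPS-treated SCC13-TLR4 culture, and in no SCC13-pUNO culture. For S100A7, whose probe is spotted 10 times, the share of spots above background ran from 0% to 50% between arrays. No group of arrays met the rule for any gene of the block, so no change of these genes with TLR4 or LPS could be measured.

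LORICRIN, most fused S100 genes and part of the LCE and SPRR genes were near or below the background as well, whereas LCE1A, LCE1C, LCE1D, LCE1E, LCE3A, SPRR1A, SPRR2D, SPRR2E and SPRR2F were above it on all 15 arrays with their best probe. The second probes of SPRR1A (A_23_P74012) and LCE1C (A_33_P3356821) were above it on 0 arrays. LORICRIN, the main envelope protein of the uppermost layers, was above background on 1 of 15 arrays, an LPS-treated SCC13-pUNO culture. FLG, which encodes filaggrin, reached background on 4 arrays with its best probe of 3, and FLG2, HRNR and RPTN on 0. TCHH was detected on 3 arrays and TCHHL1 on 2. Among LCE genes, LCE2B, LCE2C, LCE2D, LCE4A and LCE5A were detected on 0 arrays, LCE2A and LCE3C on 7 each. Among SPRR genes, SPRR2B and SPRR4 were detected on 0 arrays, SPRR2A on 1, SPRR3 on 2 and SPRR2G on 3.

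**Figure D1:**
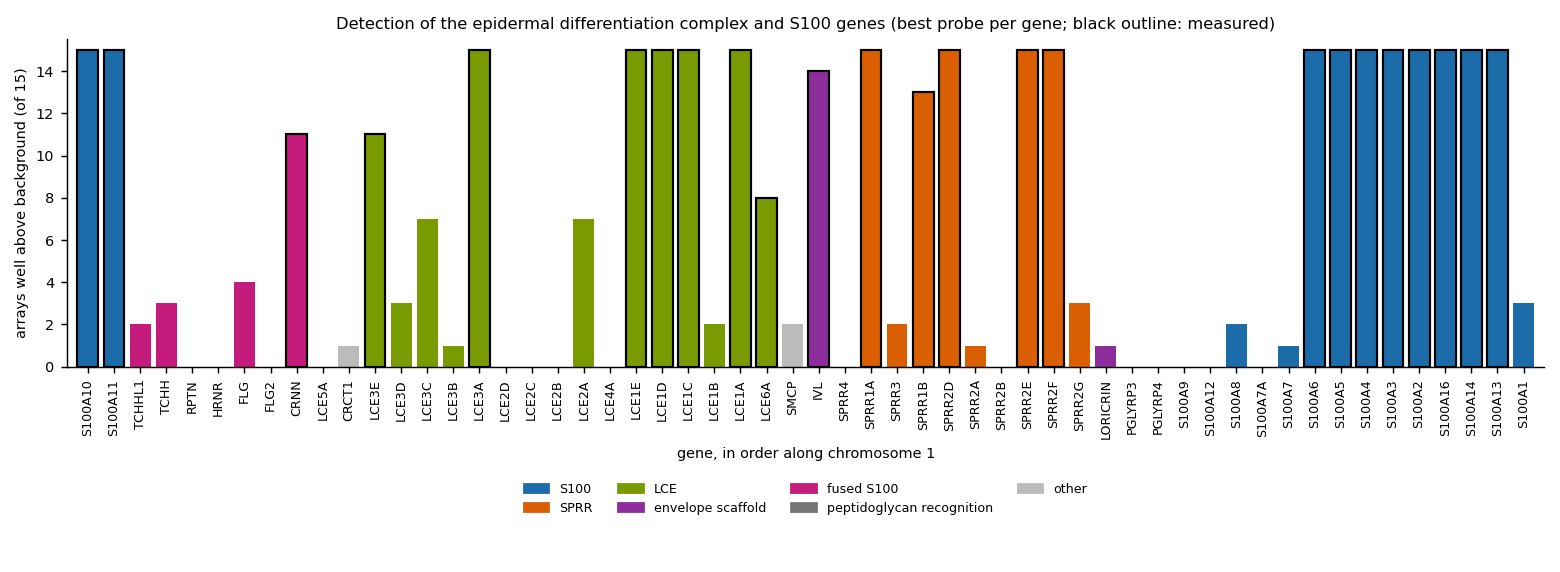
Number of arrays, of 15, on which the best probe of each of the 56 genes with a probe was well above background, with the genes in their order along chromosome 1 and coloured by family; a black outline marks the 24 measured genes. S100A10 and S100A11 at the start and the run from S100A6 to S100A13 near the end reach 15 arrays, S100A1 as the last gene reaches 3, and the block from S100A9 to S100A7 reaches at most 2.

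The measured and unmeasured members can be set beside their upstream regions. TATAAA was found in 9 of 22 measured and 19 of 30 unmeasured members with a region, and TGANTCA in 8 and 10. Within the S100 family TATAAA was in 2 of 10 measured and 5 of 6 unmeasured genes, as the printed S100A6 and S100A9 regions show. With so few genes these counts are given with no test.

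The cells carried the markers of their label. Of 11 keratinocyte markers 9 were measured, all of them on every array, while KRT6A and PKP1 were above background on 7 and 6 arrays. At an unadjusted p under 0.05 in limma, 1 of the 9 differed between untreated lines (KRT14, higher in SCC13-TLR4 by 0.88 in log2), against 2.5% of all probes. Between LPS-treated lines 2 did (KRT14 by 1.68 and KRT17 by 0.49), against 2.72%. None passed an adjusted p of 0.05. Without untreated SCC13-pUNO replicate 2 the first difference was 1.25. Of 6 fibroblast markers none was measured, of 5 melanocyte markers 1 (PMEL, on all 15 arrays), of 4 endothelial markers 3 (CDH5 on 15, VWF on 14 and PECAM1 on 10 arrays) and of 7 leukocyte markers with a probe 3 (PTPRC, CSF1R and CD68, on all 15). The summed intensity of the leukocyte list, in units of the 75th percentile of the array, ran from 1.08 to 1.32 and from 1.09 to 1.31 in SCC13-pUNO cells without and with LPS, and from 1.22 to 1.36 and from 1.09 to 1.66 in SCC13-TLR4 cells. That of the endothelial list ran from 0.23 to 0.57 over all arrays, and the part of these signals in the results was not tested. TLR4 itself, in log2 intensity against each array's 75th percentile, lay between 2.84 and 3.19 on the 7 SCC13-TLR4 arrays and between −6.26 and −4.74 on the LPS-treated SCC13-pUNO arrays. In untreated SCC13-pUNO cells it was −3.80, 3.04, −6.40 and −5.72, so the array labelled replicate 2 had the TLR4 level of the other line. The main results that use that array, the doubtful array, are therefore also given without it. The arrays came on 2 slides, 8 on slide 1 and 7 on slide 2, and each slide held all 4 groups. The untreated groups were not balanced over the slides, so line and slide overlap in part there. Of untreated SCC13-pUNO arrays only replicate 4 lay on slide 2, and of untreated SCC13-TLR4 arrays only replicate 1 on slide 1. On these slides the within-slide LPS differences below rest on that single untreated array.

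The measured S100 genes other than S100A5 varied over the 15 arrays by 0.52 (S100A10) to 1.12 (S100A11). All levels and differences from here on are log2 intensities relative to the 75th percentile of each array, and levels are compared only within a probe. S100A6 (calcyclin), which binds annexins, ran from 8.43 to 8.98 over the 15 arrays with a median of 8.76. S100A2, a p63 target of basal keratinocytes, ran from 7.60 to 8.32. S100A10, the partner of annexin A2, ran from 6.30 to 6.82.

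S100A13 ran from 6.19 to 6.88, S100A16 from 5.94 to 6.47 and S100A14 from 5.70 to 6.35. S100A11, a component of the cornified envelope, ran from 4.82 to 5.94 with the probe used for it, and S100A4, known from motile and mesenchymal cells, from 2.34 to 3.45. S100A3, best known from the hair cuticle, ran from −0.80 to −0.07. For each of these 9 genes the groups overlapped in all 4 comparisons.

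S100A5 read −0.31, −0.33, −1.08 and 1.17 in untreated SCC13-pUNO cells, −3.12, 1.17 and 1.32 in untreated SCC13-TLR4 cells, −0.07, −0.84, 1.89 and −0.32 in LPS-treated SCC13-pUNO cells, and −0.95, −3.45, 1.39 and 1.06 in LPS-treated SCC13-TLR4 cells. Every group held low and high arrays, and the groups overlapped. The SD within groups was 1.77, against 0.15 to 0.41 for the other 9 S100 genes.

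Measured S100 genes did not differ detectably between the groups. For the 9 genes other than S100A5 the differences in the 4 comparisons lay between −0.26 and 0.29, and their 95% confidence intervals between −0.83 and 0.87. The differences lay between −0.28 and 0.29 without the doubtful array, and between −0.17 and 0.37 with slide as a factor. The largest of these differences was S100A11 in LPS-treated SCC13-TLR4 against SCC13-pUNO cells, 0.29 (SE 0.27, 95% CI −0.30 to 0.87, limma adjusted p = 1.00). There the arrays of SCC13-TLR4 cells read 5.81, 5.93, 5.50 and 5.13 and those of SCC13-pUNO cells 5.81, 5.31, 4.82 and 5.29, with overlap. The second S100A11 probe gave 0.30 in that comparison. For S100A5 the SE was 1.1 to 1.2, so that its differences of −0.65 to 0.30 are bounded only loosely. With slide as a factor S100A5 differed by −1.16 (SE 0.78) in place of −0.07 between the untreated lines, and for LPS in SCC13-pUNO cells by −0.35 (SE 0.70) in place of 0.30, a change of sign. For LPS in SCC13-TLR4 cells the sign changed as well, from −0.28 to 0.155. Leaving out the doubtful array gave −0.14 and 0.24 in the comparisons that use it. Medians over the 10 S100 genes were −0.09 and 0.02 between the lines without and with LPS, and −0.08 and 0.01 for LPS in SCC13-pUNO and SCC13-TLR4 cells, where the medians over all 22685 probes tested were −0.02, −0.01, −0.01 and −0.01.

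**Figure D2:**
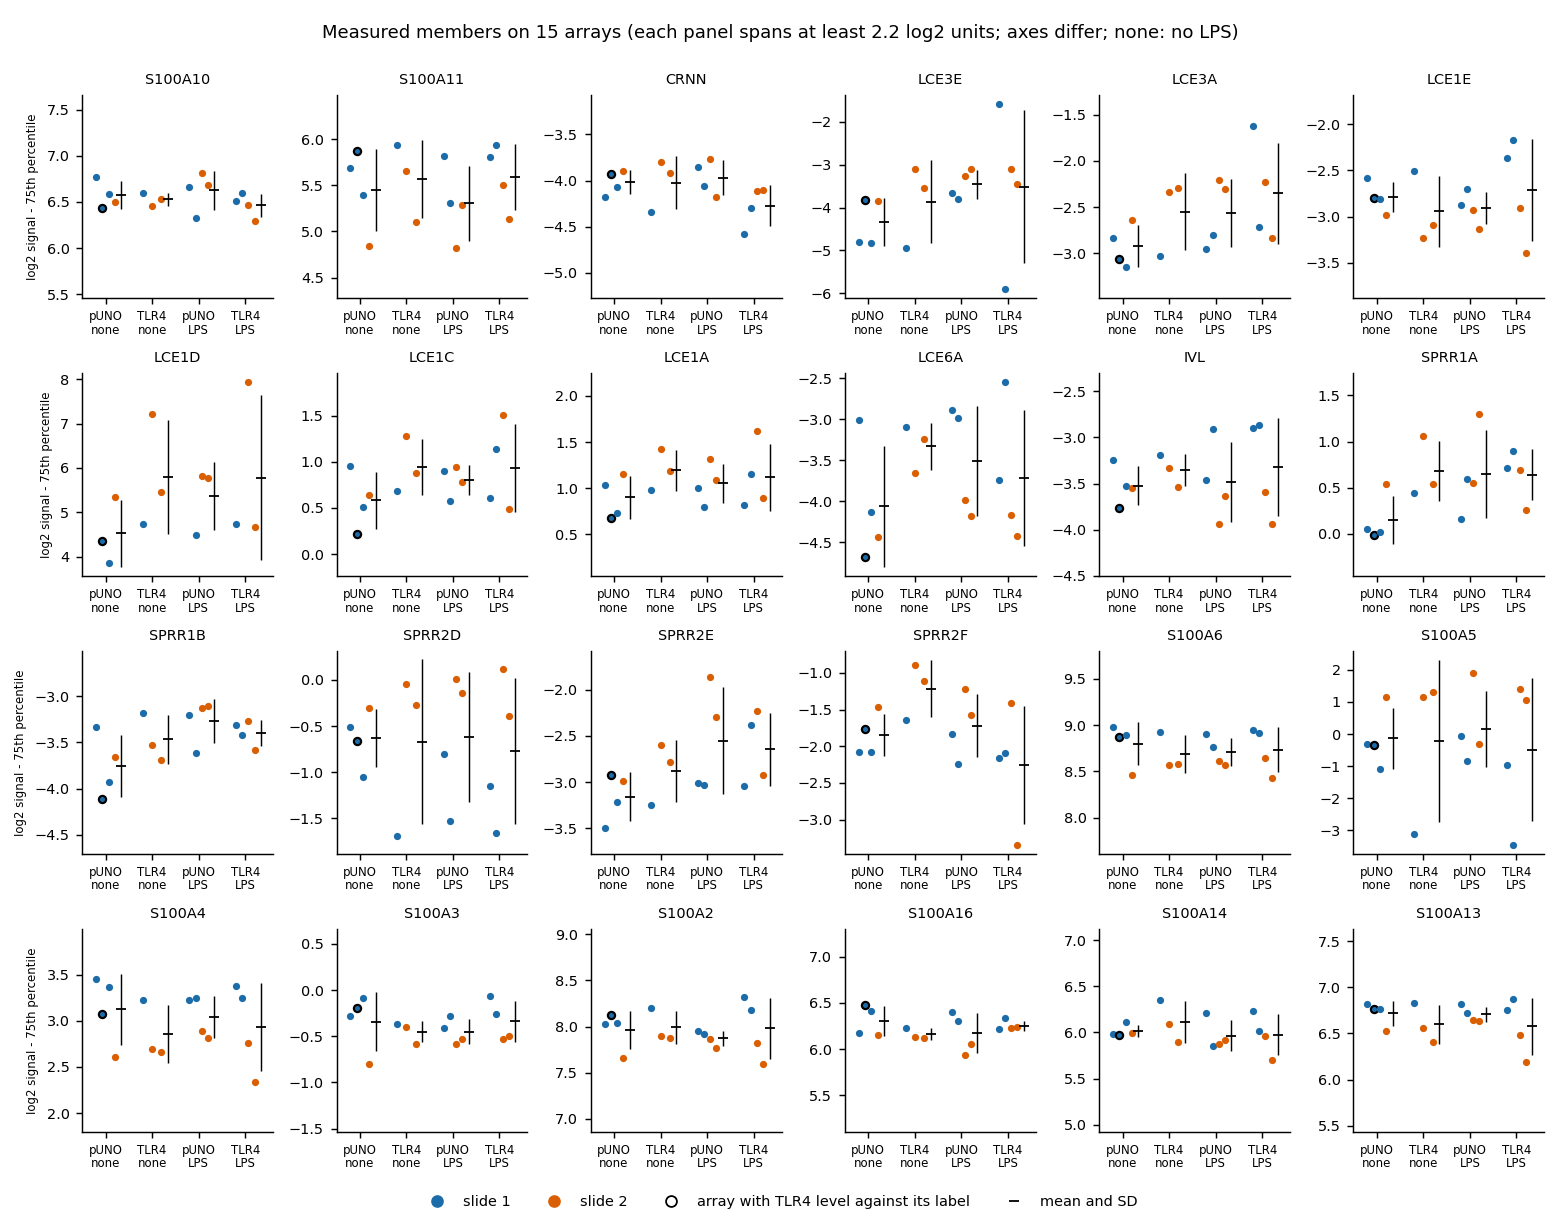
Log2 intensity minus that array's 75th percentile for the 24 measured genes, best probe of each, on 15 arrays by line and treatment ("none", no LPS), coloured by slide, with the array whose TLR4 level goes against its label ringed and the mean and SD of each group beside its points; the axes of the panels differ. S100A6 stays between 8.43 and 8.98, whereas S100A5 and LCE1D spread over several units within groups.

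Over all members, no probe passed an adjusted p of 0.05 in any comparison of groups. In limma the share of all 22685 tested probes that passed was 0% in each comparison as well. Member probes were 0 of 26 each time. TLR4, the transfected gene, did not pass either. It differed between the lines by 6.32 without LPS (limma adjusted p = 0.999) and by 8.86 with LPS (limma adjusted p = 0.312). Without the doubtful array its unadjusted limma p was 1.8e-09 and 1.8e-10. A count of 0 in this fit is therefore no evidence that a gene did not change. At an unadjusted p under 0.05, SCC13-TLR4 against SCC13-pUNO gave 0 of 26 member probes without LPS, where 2.5% of all probes passed, and 0 of 26 with LPS, where 2.72% passed. LPS in SCC13-pUNO cells gave 3 of 26 (SPRR1B, SPRR2E and a probe of SPRR2D) against 2.48%, LPS in SCC13-TLR4 cells 2 of 26 (SPRR2F and the same SPRR2D probe) against 1.33%, and the difference between the lines in the response to LPS 1 of 26 (SPRR2F) against 1.32%. The members past this unadjusted level in that fit were SPRR genes. The SPRR2D probe met the rule for measured only through the LPS-treated SCC13-TLR4 arrays. SPRR2D, SPRR2E and SPRR2F are described below because of their values.

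Leaving out the doubtful array and fitting slide as a factor each changed which members passed the unadjusted level. In the fit that left out the doubtful array, 0 of 26 member probes passed between untreated and between LPS-treated lines, where 2.35% and 2.6% of all probes did. LPS in SCC13-pUNO cells then gave 2 (SPRR2E and the SPRR2D probe, with SPRR1B no longer among them) against 2.01%, LPS in SCC13-TLR4 cells the earlier 2 against 1.25%, and the difference of responses SPRR2F alone against 1.09%.

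With slide as a factor, LCE6A passed between untreated lines (1 of 26, against 5.55%) and CRNN between LPS-treated lines (1 of 26, against 6.43%). LCE6A met the rule for measured only through the untreated SCC13-TLR4 arrays. LPS in SCC13-pUNO cells gave 3 (SPRR1B, the SPRR2D probe and LCE6A, with SPRR2E no longer among them) against 3.85%, LPS in SCC13-TLR4 cells SPRR2F and the SPRR2D probe against 2.96%, and the difference of responses LCE6A in place of SPRR2F against 2.01%. The smallest adjusted p of a member in that fit was 0.760 in limma.

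The count of probes whose groups do not overlap was read in the same way. Between untreated lines, 2.15% of all probes were higher on every SCC13-TLR4 array and 1.58% lower on every one, or 4.16% and 3.08% without the doubtful array, and members were 0 of 26 in each case. Between LPS-treated lines these shares were 0.56% and 0.727%, with 0 members. With LPS in SCC13-pUNO cells, 0.965% were higher and 0.309% lower, or 1.63% and 0.529% without the doubtful array. There 2 member probes were higher both times, the SPRR2D probe and LCE3E, and 0 lower. With LPS in SCC13-TLR4 cells, 1.05% of all probes were higher and 0.736% lower, with the SPRR2D probe the only member higher and 0 lower. Each of these member probes met the rule for measured only through an LPS-treated group, SCC13-TLR4 for SPRR2D and SCC13-pUNO for LCE3E.

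**Figure D3:**
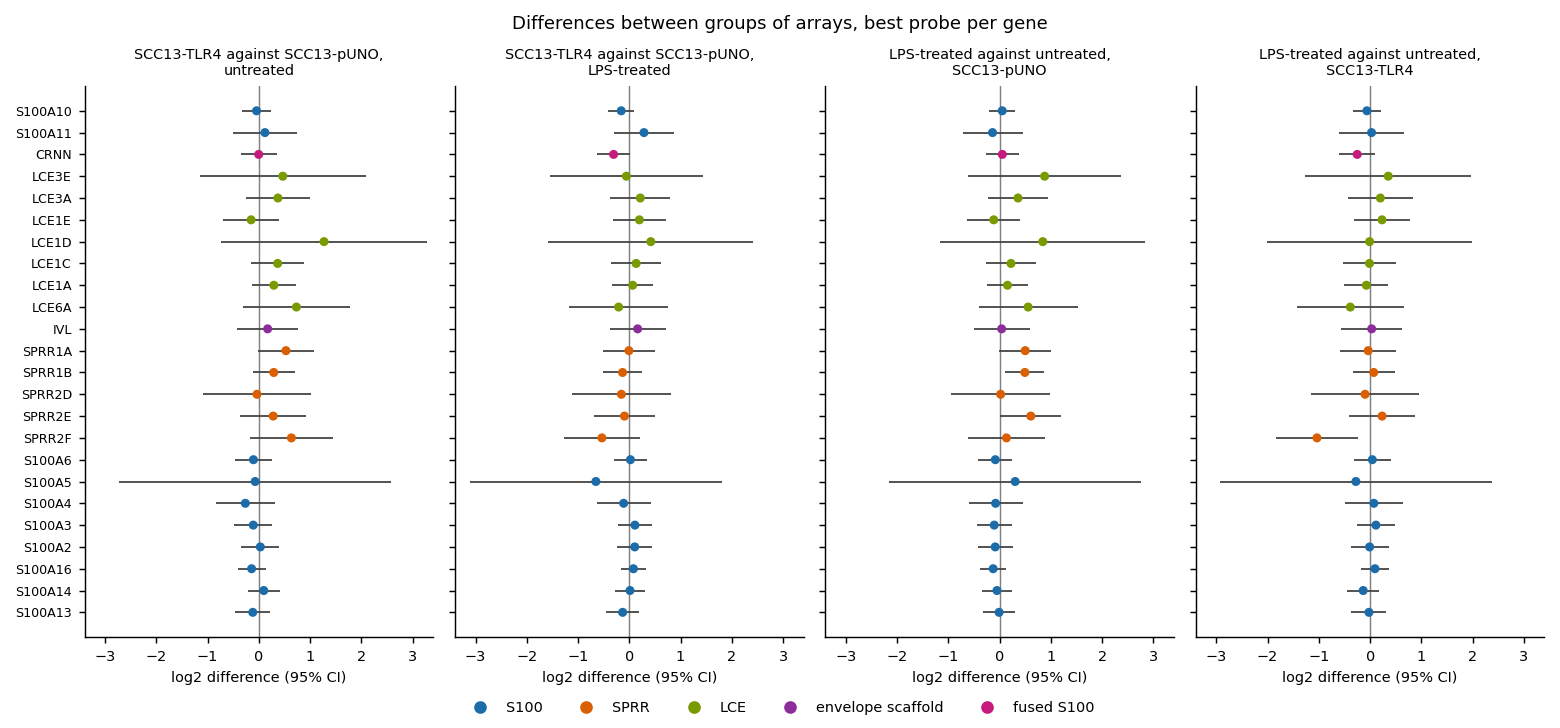
Difference in log2 intensity, with its 95% confidence interval from limma, for the best probe of each of the 24 measured genes in the 4 comparisons of groups, in gene order along chromosome 1 and coloured by family. The intervals of the S100 genes other than S100A5 are narrow around 0, and those of S100A5, LCE1D and LCE3E are the widest.

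Among the cornified envelope precursors, SPRR2D was read by a pair of probes for the same transcript accession, and they did not move alike. Probe A_23_P11644 read −5.57, −4.59, −4.72 and −4.58 in untreated SCC13-pUNO cells and −4.06, −4.08, −3.42 and −3.31 after LPS. All 4 treated arrays lay above all 4 untreated ones. The group means were −4.86 ± 0.47 (SD, n = 4) and −3.72 ± 0.41 (SD, n = 4), a difference of 1.14 (SE 0.24, 95% CI 0.63 to 1.66, limma p = 0.000334, adjusted p = 1.00, exact two-sided permutation p = 0.0286, the smallest that this design allows). It was 0.89 within slide 1, 1.21 within slide 2, and 1.24 without the doubtful array.

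This probe was at the background: it was well above it on 0 of 4 untreated and 2 of 4 treated SCC13-pUNO arrays. With the untreated arrays set to the lowest signal well above background on each, the LPS difference in SCC13-pUNO cells was 0.46. The same probe in SCC13-TLR4 cells read −4.71, −4.21 and −4.57 without and −3.92, −3.71, −4.00 and −3.62 with LPS, again with no overlap, and was well above background on 1 of 3 and 4 of 4 arrays. The difference was 0.69 (SE 0.26, limma p = 0.0196, adjusted p = 1.00, exact permutation p = 0.0286), with 0.90 on slide 1 and 0.58 on slide 2. The probe met the rule for measured only through the LPS-treated SCC13-TLR4 arrays. That rule favoured higher values there, so the lack of overlap and these p-values are not independent of it. With normexp background correction, which adds an offset to faint signals, the LPS differences of this probe were 0.33 in SCC13-pUNO and 0.13 in SCC13-TLR4 cells, and quantile normalization gave 0.40 in the latter.

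The other SPRR2D probe, A_33_P3322388, was above background on all 15 arrays. It read −0.51, −0.66, −1.05 and −0.31 in untreated and −0.80, −1.53, 0.01 and −0.14 in LPS-treated SCC13-pUNO cells, and −1.69, −0.04 and −0.28 against −1.15, −1.66, 0.12 and −0.39 in SCC13-TLR4 cells. Its groups overlapped throughout. LPS differences were 0.02 (SE 0.45) and −0.10 (SE 0.49), and the mean of both SPRR2D probes gave 0.58 in SCC13-pUNO and 0.29 in SCC13-TLR4 cells. SPRR2 genes are near-identical copies of each other, and which of them a probe reads was not tested. Nor was it tested which LCE gene an LCE probe reads.

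SPRR1B, a cross-linked envelope precursor of squamous cells, read −3.33, −4.11, −3.93 and −3.65 in untreated SCC13-pUNO cells and −3.21, −3.62, −3.13 and −3.10 after LPS. Treated arrays were higher in 15 of 16 pairs. The means were −3.76 ± 0.34 and −3.26 ± 0.24 (SD, n = 4 each), a difference of 0.49 (SE 0.18, limma p = 0.0158, adjusted p = 1.00, exact permutation p = 0.0571). Without the doubtful array the difference was 0.37 (limma p = 0.0591, exact permutation p = 0.114), within slides it was 0.38 and 0.54, and with normexp 0.23. In SCC13-TLR4 cells SPRR1B read −3.18, −3.53 and −3.69 without and −3.32, −3.42, −3.27 and −3.58 with LPS, with overlap and a difference of 0.07. Between the lines it differed by 0.29 without LPS (0.17 without the doubtful array) and by −0.13 with LPS, neither past an unadjusted p of 0.05 in limma.

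SPRR1A, a second cross-linked envelope precursor, read 0.06, −0.01, 0.02 and 0.55 in untreated and 0.16, 0.59, 0.55 and 1.30 in LPS-treated SCC13-pUNO cells. The difference was 0.50 (SE 0.23, limma p = 0.053, exact permutation p = 0.0571), with 15 of 16 pairs higher after LPS. Untreated SCC13-TLR4 cells read 0.45, 1.06 and 0.54, a difference of 0.53 (SE 0.25, limma p = 0.056, exact permutation p = 0.114) from untreated SCC13-pUNO cells. The groups overlapped in both comparisons. Without the doubtful array the differences were 0.44 and 0.47. LPS-treated SCC13-TLR4 cells read 0.71, 0.90, 0.69 and 0.26, with overlap with the untreated ones, and the LPS difference was −0.04. All these are readings of probe A_23_P348208, and the other SPRR1A probe was above background on 0 arrays.

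SPRR2E read −3.50, −2.92, −3.22 and −2.99 in untreated and −3.02, −3.03, −1.86 and −2.30 in LPS-treated SCC13-pUNO cells. The 2 high treated arrays were those on slide 2, and the within-slide differences were 0.19 and 0.91. Over both slides the difference was 0.61 (SE 0.28, limma p = 0.046, adjusted p = 1.00, exact permutation p = 0.171). Without the doubtful array it was 0.69. SCC13-TLR4 cells read −3.25, −2.60 and −2.79 without and −3.04, −2.38, −2.24 and −2.93 with LPS, with overlap and a difference of 0.23 (SE 0.30).

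SPRR2F was the member with the lowest unadjusted p for a decrease. It read −1.65, −0.89 and −1.10 in untreated SCC13-TLR4 cells and −2.17, −2.09, −1.41 and −3.34 after LPS, and −2.07, −1.77, −2.08 and −1.47 against −1.83, −2.25, −1.22 and −1.57 in SCC13-pUNO cells. The treated SCC13-TLR4 arrays were lower in all but 1 of 12 pairs. The difference was −1.04 (SE 0.37, limma p = 0.0153, adjusted p = 1.00, exact permutation p = 0.0857), −0.67 without the LPS-treated SCC13-TLR4 replicate 4, and −0.65 with normexp. Within slides it was −0.48 and −1.38. In SCC13-pUNO cells the difference was 0.13 (0.16 without the doubtful array), and the responses of the lines differed by −1.17 (SE 0.51, 95% CI −2.26 to −0.07, adjusted p = 1.00 in limma).

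As families, the SPRR and LCE genes can be given by their counts and medians. Of the 5 measured SPRR genes, 5 had a positive LPS difference in SCC13-pUNO cells (median 0.49) and 2 in SCC13-TLR4 cells (median −0.04), and 4 were positive between untreated and 0 between LPS-treated lines (medians 0.29 and −0.13). Of the 7 measured LCE genes, 6 were positive and 1 negative for LPS in SCC13-pUNO cells (median 0.36), and 3 and 4 in SCC13-TLR4 cells (median −0.01). Of all 22685 probes tested, 10873 were positive for LPS in SCC13-pUNO cells and 10901 in SCC13-TLR4 cells. Between the lines, 10235 were positive without and 10829 with LPS. Genes of a family were read on the same arrays, so their signs are not independent. The LCE counts and medians include LCE3E, which met the rule for measured only through the LPS-treated SCC13-pUNO arrays. They also include LCE6A, which met it only through the untreated SCC13-TLR4 arrays. That rule favoured higher values in these groups, so the LCE counts and medians that use them are not independent of it. Over all 24 measured members the 4 medians were 0.11, 0.00, 0.05 and −0.01. The comparison of the untreated lines and that of LPS in SCC13-pUNO cells share the untreated SCC13-pUNO arrays. Without the doubtful array, which is among them, the medians of these comparisons were 0.36 and 0.37 for SPRR genes, 0.33 and 0.31 for LCE genes and −0.08 and −0.05 for S100 genes.

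LCE3E, a late envelope gene of the LCE3 group known from repair and inflamed skin, read −4.82, −3.83, −4.82 and −3.86 in untreated and −3.67, −3.80, −3.26 and −3.09 in LPS-treated SCC13-pUNO cells. Treated arrays were higher in all 16 pairs, and 2 of the 4 untreated arrays were above background. The gene met the rule for measured only through this treated group. That rule favoured higher values there, so the lack of overlap and the p-values are not independent of it. The means were −4.33 ± 0.56 and −3.45 ± 0.34 (SD, n = 4 each), a difference of 0.88 (SE 0.70, 95% CI −0.62 to 2.37, limma p = 0.229, adjusted p = 1.00, exact permutation p = 0.0286). LCE3E read −1.59 and −5.90 on 2 arrays of LPS-treated SCC13-TLR4 cells, and the fit shares this spread between groups. Without the doubtful array the difference was 1.04, within slides 0.75 and 0.68, and with normexp 0.33. In SCC13-TLR4 cells it was 0.35 (SE 0.75).

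LCE1D had values on 12 of 15 arrays, since its spot was marked an outlier on the other 3, and the fit drops these spots. They would have read 6.05 in untreated SCC13-pUNO replicate 1, 5.62 in LPS-treated SCC13-pUNO replicate 1 and 7.01 in LPS-treated SCC13-TLR4 replicate 2. It read 4.36, 3.86 and 5.34 in untreated and 4.49, 5.82 and 5.78 in LPS-treated SCC13-pUNO cells, and 4.72, 7.21 and 5.45 against 4.74, 7.93 and 4.68 in SCC13-TLR4 cells. The groups overlapped, and both SCC13-TLR4 groups held an array over 7. Its differences had an SE of 0.90 and ran from −0.01 to 1.27. With the marked spots kept, LCE1D differed by 0.89 and 0.66 between the lines without and with LPS, and by 0.52 and 0.30 with LPS in SCC13-pUNO and SCC13-TLR4 cells, in place of 1.27, 0.42, 0.84 and −0.01. The other 5 measured LCE genes (LCE1A, LCE1C, LCE1E, LCE3A and LCE6A) differed by −0.39 to 0.73 over the 4 comparisons, none past an unadjusted p of 0.05 in limma. LCE6A, above background on 8 of 15 arrays, read −3.01, −4.68, −4.13 and −4.44 in untreated SCC13-pUNO and −3.10, −3.66 and −3.24 in untreated SCC13-TLR4 cells. The first of the SCC13-pUNO arrays lay above all 3 SCC13-TLR4 arrays and the others below them. The LCE6A difference between untreated lines, 0.73 (SE 0.48, exact permutation p = 0.171), was 1.09 with slide as a factor and 0.53 without the doubtful array. LCE6A met the rule for measured only through the untreated SCC13-TLR4 arrays, so the rule favoured higher values there.

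IVL, which encodes involucrin, an early scaffold of the envelope, was above background on 14 of 15 arrays. It read −3.25, −3.76, −3.53 and −3.55 in untreated SCC13-pUNO cells, −3.19, −3.33 and −3.53 in untreated SCC13-TLR4 cells, −3.46, −2.91, −3.94 and −3.63 in LPS-treated SCC13-pUNO cells and −2.90, −2.86, −3.59 and −3.94 in LPS-treated SCC13-TLR4 cells. The groups overlapped in every comparison. Differences were 0.17 (SE 0.27) and 0.16 (SE 0.25) between the lines and 0.04 (SE 0.25) and 0.03 (SE 0.27) with LPS. Without the doubtful array the first was 0.09 and the third −0.04. CRNN, which encodes cornulin, a fused S100 protein of squamous epithelia, read −3.86, −4.06, −3.77 and −4.18 in LPS-treated SCC13-pUNO and −4.58, −4.30, −4.11 and −4.10 in LPS-treated SCC13-TLR4 cells. The groups overlapped, and the lines differed by −0.31 (SE 0.15, exact permutation p = 0.114). In the other comparisons CRNN differed by −0.25 to 0.05. Its probe is spotted 10 times, and 20% to 80% of the spots were above background on an array.

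Member probes and all probes alike moved with the slide on which an array lay. With the groups in the model, 4 of 26 member probes were higher on slide 2 at an adjusted p under 0.05 in limma (S100A5, SPRR2E, LCE1A and SPRR2D probe A_33_P3322388) where 17.1% of all probes were, and 10 were lower where 34.7% of all probes were. These members were 15.4% and 38.5% of the 26, near the shares over all probes. The 10 were IVL, LCE1E, LCE6A and 7 S100 probes. For S100A5 the 8 arrays of slide 1 read from −3.45 to −0.07 with a median of −0.90, and the 7 of slide 2 from −0.32 to 1.89 with a median of 1.17, a coefficient of 2.60 (SE 0.53).

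Most S100 and SPRR probes lay on opposite sides in this coefficient. Of 11 S100 probes 10 were negative (median −0.33), and of 6 SPRR probes 6 were positive (median 0.35). At an adjusted p under 0.05 in limma, 7 of these S100 probes and 2 of these SPRR probes passed. S100A4 fell by 0.59 from slide 1 to slide 2, with 3.07 to 3.45 on slide 1 and 2.34 to 2.88 on slide 2, and the slides did not overlap. SPRR2D probe A_33_P3322388 rose by 1.09, with −1.69 to −0.51 on slide 1 and −0.39 to 0.12 on slide 2. The median over all probes was −0.13, with the S100 median below it and the SPRR median above it. With the 75th percentile taken over the probes detected on all arrays, the medians were −0.02 over all probes, −0.21 for S100 and 0.47 for SPRR probes. Under that scaling 4941 probes were called higher and 4310 lower on slide 2, against 3889 and 7869, and member probes 7 and 8. Under quantile normalization 9 of 11 S100 probes were negative and 5 of 6 SPRR probes positive, and without the doubtful array 10 and 5. Nothing in the files says whether the slides differ in hybridisation, scan or culture, and these cannot be told apart. With slide as a factor, the medians for LPS in SCC13-pUNO cells were 0.44 for SPRR, 0.28 for LCE and 0.00 for S100 genes. Those between untreated lines were 0.28, 0.25 and 0.02. The LCE medians again include LCE3E and LCE6A, with the limit given above.

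**Figure D4:**
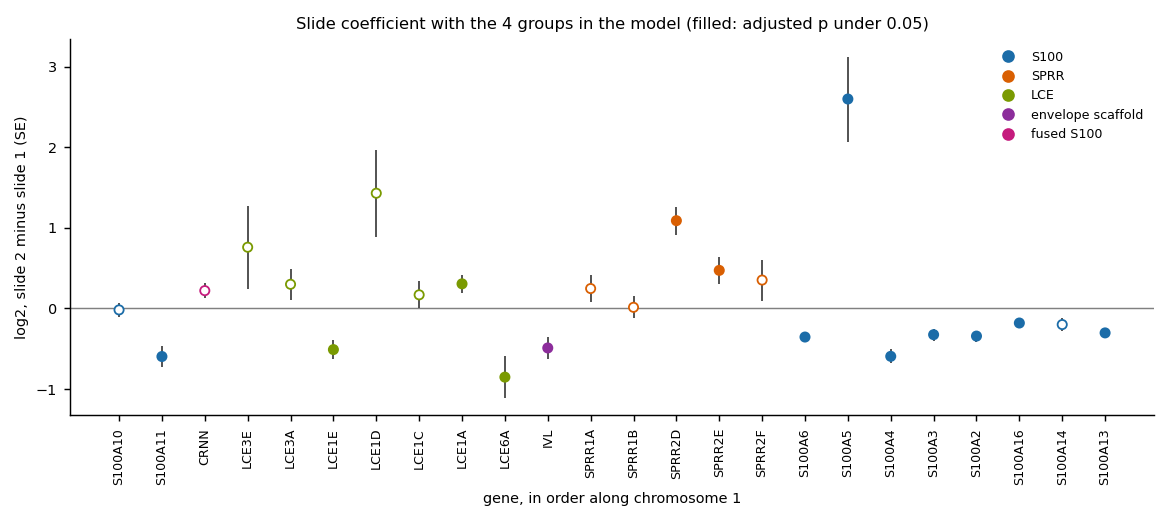
Slide coefficient, slide 2 minus slide 1 in log2 intensity with its SE, from a limma fit that also held the 4 groups, for the best probe of each of the 24 measured genes in gene order; filled points have an adjusted p under 0.05. Most S100 genes lie below 0 and the SPRR genes above it, with S100A5 at 2.60.

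In bulk RNA of a culture, fewer cells of a differentiated type and less RNA per cell cannot be told apart. The number of arrays and signals near background limit the precision for most envelope genes. For these comparisons 104 exact permutation tests were run on the member probes, of which 3 reached the smallest p that their design allows, and no adjustment over all probes was passed. That p was 0.0286 with 4 against 4 or 4 against 3 arrays, so a few of 104 tests reach it by chance. The 3 were SPRR2D probe A_23_P11644 with LPS in each line and LCE3E with LPS in SCC13-pUNO cells.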

How the data were processed

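Total RNA of 15 cultures was labelled with Cy3 and hybridised to 1-colour Agilent SurePrint G3 Human 8x60K arrays. The deposited values are linear spot intensities. Per the file headers they come from Agilent's Feature Extraction software with the background already subtracted and with no normalization across arrays. A series matrix holds the same intensities at all spots.

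From each log2 intensity, the 75th percentile of its array was subtracted. Control spots and spots marked as outliers were left out, and spots of a probe were averaged. A probe counted as well above background on an array where at least 0.5 of its spots did, and was tested when this held on every array of at least 1 group (22685 of 50599 probes). A gene was represented by the probe detected on most arrays. All 15 arrays were fitted in limma 3.58.1 (R 4.3.3) with a mean for each group and moderated variances, and p-values were adjusted by Benjamini-Hochberg across the tested probes (threshold 0.05). Single probes were also compared with exact two-sided permutation tests. The script was tested on simulated data. Groups and replicate numbers came from the sample labels. Named with values by rule were measured members whose groups do not overlap, with SPRR1B and IVL always. SPRR1A, SPRR2D, SPRR2E, SPRR2F, S100A5, LCE1D, LCE6A and CRNN were chosen after their values were seen. The members, gene lists and tests were chosen with earlier results of these data known.

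Alternatives were the quantile and detected-probe normalizations, normexp background correction (on median signals, since mean signals were not used here), probe filters, array weights, slide as a factor, a replicate block, and leaving out each array. The replicate numbers were checked as pairs. The correlation of deviations ran from −0.40 to 0.62 over 14 pairs, was over 0.1 in the 10 pairs that lay on the same slide and below 0 in the 4 that did not. Between LPS-treated lines all 4 pairs lay on the same slide and were over 0.1. There a pairing by number cannot be told apart from the shared slide.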

Additional observations from a re-analysis of the deposited data

Results flagged for a closer look

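In 69 groups of 4 arrays, over the measured members, the array farthest from the rest was checked with Dixon's test, which chance passes in about 1 of 20 groups, or 3.45 here. SPRR1A passed in untreated SCC13-pUNO cells, where replicate 4 read 0.546 and the others −0.015 to 0.057.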

How the results depend on the processing

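Member probes called at an adjusted p of 0.05 were 0 in every comparison under all 144 alternative settings. With the replicate block the count of member calls was 0 as well, and the block changed no call of a member. The count over all probes moved from 0 between untreated lines to 8 with array weights and to 11 with a slide factor in a fit that dropped replicate 2 of untreated SCC13-pUNO, the doubtful array. Between LPS-treated lines it moved to 22 with the latter and to 5 with only the groups compared. Leaving out each array gave 0 to 7 between untreated lines (7 without untreated SCC13-pUNO replicate 2, 3 without untreated SCC13-TLR4 replicate 3), 0 to 10 between LPS-treated lines (10 without untreated SCC13-pUNO replicate 2), 0 to 1 for LPS in SCC13-pUNO (1 without its treated replicate 2), and 0 to 3 for LPS in SCC13-TLR4 and 0 to 2 for the difference of responses (both without untreated SCC13-TLR4 replicate 3). Of 355 values of named genes under alternatives, 341 kept their direction and side of the threshold, and 14 reversed. IVL reversed between the lines with normexp (−0.0109 without and −0.049 with LPS), for LPS in SCC13-pUNO cells with quantile normalization (−0.11), and without untreated replicate 2 (−0.0429) or treated replicate 2 (−0.1545), its leave-one-out values running from −0.1545 to 0.1886. For LPS in SCC13-TLR4 cells IVL reversed with quantile normalization (−0.11), slide as a factor (−0.0527, and −0.0587 with the doubtful array dropped too), and without untreated replicate 3 (−0.0621), treated replicate 1 (−0.1118) or treated replicate 2 (−0.1246), with leave-one-out values from −0.1246 to 0.2355. SPRR1B reversed for LPS in SCC13-TLR4 cells with quantile normalization (−0.093) and without untreated replicate 3 (range −0.0444 to 0.2136 over the arrays), and SPRR2F for LPS in SCC13-pUNO cells without treated replicate 3 (range −0.0344 to 0.3071). The cause was not tested. The LPS difference of SPRR2D probe A_23_P11644 ran from 0.33 (normexp) to 1.26 in SCC13-pUNO and from 0.13 (normexp) to 0.83 in SCC13-TLR4 cells (adjusted p 0.645 to 1 and 0.592 to 1). Alternatives for the slide coefficient were chosen after seeing the data: member probes higher on slide 2 were 7 with the 75th percentile over detected probes, and 4 or fewer otherwise. Signals near background limit IVL, SPRR1B, SPRR2D and LCE3E.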

Other observations

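Genes that cross-link, trim or switch on the envelope from outside the complex were fixed as a list of 34, of which 21 were measured. TGM1, the main transglutaminase of the envelope, ran from −3.20 to −2.03 over the 15 arrays, and the plakin scaffolds PPL and EVPL from 2.27 to 3.03 and from 2.30 to 3.32. KLK5, a protease of the outer layers, ran from 5.32 to 5.96. TGM3, TGM5, KRT1, KRT2, DSC1, CDSN, ZNF750 and PRDM1 were above background on 0 arrays. None of the 21 passed an adjusted p of 0.05 in limma. At an unadjusted p under 0.05, 1 passed between untreated lines (CERS3, 0.88), where 2.5% of all probes did, and 2 between LPS-treated lines (ALOX12B, 1.71, and KLK7, −0.38), where 2.72% did. ALOX12B met the rule for measured only through the LPS-treated SCC13-TLR4 arrays, the higher group in that comparison. With the array labelled replicate 2 of untreated SCC13-pUNO left out, CERS3 differed by 0.73 and no longer passed. With LPS 0 passed in SCC13-pUNO and in SCC13-TLR4 cells, where 2.48% and 1.33% of all probes did.

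Of 12 partners and receptors of S100 proteins, 10 were measured. ANXA2, the partner of S100A10, ran from 5.96 to 6.49, ANXA1 from 5.74 to 6.10, and AGER, a receptor of S100 proteins, from 0.11 to 0.82. CD36 and ANXA6 were above background on 0 arrays. CD14 and LY96, the co-receptors of TLR4 for LPS, were above background on all 15 arrays. Outside the complex, 1 of 4 S100 genes, S100P, was measured, from −1.95 to −1.15.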
